A study of Homo sapiens with 4 samples.

Results

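ZEB1, ZEB2, VIM and FN1 were followed through a table of poly(A) site reads from DICER(ex5) cells. The genes were taken by position, as every poly(A) region whose chromosome, strand, start and end lay inside the hg19 window of a gene. The windows were 31607 to 31820 kb on the plus strand of chromosome 10 for ZEB1, 145140 to 145279 kb on the minus strand of chromosome 2 for ZEB2, 17269 to 17281 kb on the plus strand of chromosome 10 for VIM and 216224 to 216302 kb on the minus strand of chromosome 2 for FN1. Of the 31081 regions in the table, 3 lay inside these windows: 1 in ZEB1, 1 in VIM, 1 in FN1 and 0 in ZEB2. Together they held 433 reads, or 0.00254% of all reads.

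All 4 libraries were made from 1 line, a DICER hypomorph derived from HCT116, a human colon carcinoma cell line, grown without any stated treatment. No parental HCT116 library is part of the analysis, so that the spread between libraries can be measured and an effect of the DICER change cannot. The libraries held 2163977 to 5713530 reads. Whether the line is a single clone was not given in the sources used here.

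Dicer releases mature microRNAs from their hairpin precursors, and a hypomorphic allele leaves less of that activity. The miR-200 family keeps epithelial cells from expressing ZEB1 and ZEB2, zinc finger repressors of E-cadherin and other epithelial genes. Both repressors in turn bind the miR-200 gene clusters and silence them, so that the factors and the microRNAs hold each other down. VIM encodes vimentin, the intermediate filament protein of mesenchymal cells, and FN1 encodes fibronectin, a secreted protein of the extracellular matrix that has also been reported as a miR-200 target. Loss of Dicer activity is therefore a setting in which the 3' ends of these 4 messages are of interest. MicroRNAs themselves were not measured here, and no target sites were searched for in the 4 genes. Whether any of the 4 genes was under microRNA control in these cells was not tested.

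The mature miR-200 sequences are shown because the family carries 2 seeds, and members with the same seed can share targets. They come from RefSeq (GRCh38.p14), run 5' to 3', and carry the seed, bases 2 to 8, in capitals:
hsa-miR-200b-3p: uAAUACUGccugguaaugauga
hsa-miR-200c-3p: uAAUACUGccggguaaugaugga
hsa-miR-429: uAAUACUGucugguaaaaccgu
hsa-miR-200a-3p: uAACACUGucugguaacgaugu
hsa-miR-141-3p: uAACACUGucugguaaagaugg
The first 3 share a seed that no other of the 2370 mature names in the RefSeq table carries, and the last 2 share another that is likewise theirs alone. The seeds differ by U4C, counted from the 5' end of the microRNA, with the base of hsa-miR-200b-3p first. The genes of hsa-miR-200b-3p, hsa-miR-200a-3p and hsa-miR-429 lie on chromosome 1, and those of hsa-miR-200c-3p and hsa-miR-141-3p on chromosome 12, so each seed is encoded in both clusters.

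The libraries stood apart in pairs across the whole table. Taking reads scaled to the library total (CPM) on the scale of log2(CPM + 1), Pearson's r over the regions reached 0.97 for library 2 with library 1 and 0.98 for library 4 with library 3. For the 4 mixed pairs it was 0.84 to 0.88. These r describe the libraries, since regions are no replicates of each other. Among regions of 41 bases or more, r was 0.98 and 0.99 in the like pairs and 0.93 to 0.96 in the mixed ones. The series design calls the libraries biological replicates, but no label gives a day, a batch or separate cultures. Whether the spread between libraries is biological or technical was therefore not tested, and batch and library cannot be told apart. In bulk RNA, fewer cells of a kind and less RNA per cell also cannot be told apart.

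Among the repressors, ZEB1 was barely read and no region was listed for ZEB2. The ZEB1 region was 3 bases wide (chromosome 10, plus strand, 31806951 to 31806953, hg19) and lay 13.0 kb short of the 3' limit of the window. Whether the oligo(dT) primer bound an A-rich stretch inside the transcript there was not tested, so its reads need not mark ZEB1 transcript ends. Library 1 gave it 11 reads, library 2 gave it 3, and libraries 3 and 4 gave it 0. In CPM these are 2.11 (95% Wilson interval 1.18 to 3.78) in library 1 and 1.39 (0.472 to 4.08) in library 2. The 0 reads of libraries 3 and 4 allow up to 0.525 and 0.753 CPM, taking 3 reads as the limit. Intervals and limits cover counting error only. The mean was 0.874 ± 1.05 CPM (SD, n = 4), an SD larger than the mean.

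The ZEB1 region was at the edge of what the table holds. The lowest peak count of any region, taken in the library where it was highest, was 11 reads. ZEB1 had exactly 11 there, and regions at that value numbered 960 (3.09%). Only 36 of the 31081 regions (0.116%) had fewer reads in all than its 14. No listed region had a lower count in its highest library, so ZEB1 lies at the boundary of the table, and the lack of a listed ZEB2 region gives no upper limit for the level of ZEB2. The ZEB2 window spans 139 kb and held 0 listed regions on either strand. The nearest regions of its strand lay 436 kb from one edge and 108 kb from the other.

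No difference between libraries was called at ZEB1, where the main test had too few reads to call one. Counts were thinned to the smallest library, which left ZEB1 3 reads in library 1 and 0 in libraries 3 and 4. Fisher's exact test with Benjamini-Hochberg adjustment over all 31081 regions then gave an adjusted p of 0.51 for library 3 against library 1. For library 4 against library 1 the adjusted p was 0.324. With 3 reads against 0, a call was not possible (unadjusted p = 0.25 and 0.125 by the same Fisher test). On the counts as deposited, which keep more reads, the same test gave 0.00127 and 0.0137, and called 35.7% and 31.3% of all regions in these pairs in either direction. ZEB1 reached 11 reads, the lowest peak count of any listed region, in library 1 alone. The comparisons with library 1 thus use the library that brought ZEB1 to that count, and cannot show a lower level in libraries 3 and 4. Such tests compare libraries, not conditions.

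The ZEB1 region belongs to a class of narrow regions that differed between the same libraries. The table holds 2489 regions of 5 bases or fewer. Their median difference in log2(CPM + 1) was -2.16 both for library 3 minus library 1 and for library 4 minus library 1, against -0.02 and -0.01 among the 7166 regions of 41 bases or more. ZEB1 differed by -1.64 in the same pairs, and 83.4% and 81.9% of the narrow regions differed by as much or more in that direction. The same Fisher test called 58.2% of the narrow regions lower in library 3 than in library 1 and 64.2% lower in library 4. ZEB1, with too few reads left by thinning, could not be among them. Of the narrow regions, 1169 (47.0%) had 0 reads in both library 3 and library 4, as ZEB1 did, while 4.51% of all regions did. Regions with 0 reads there could reach the lowest listed peak count only in library 1 or 2. Their direction was thus fixed by the listing, and its part in the medians and called shares of the class was not tested. The part of region width in the ZEB1 values was not tested, nor was that of reaching the lowest peak count only in library 1.

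**Figure D1:**
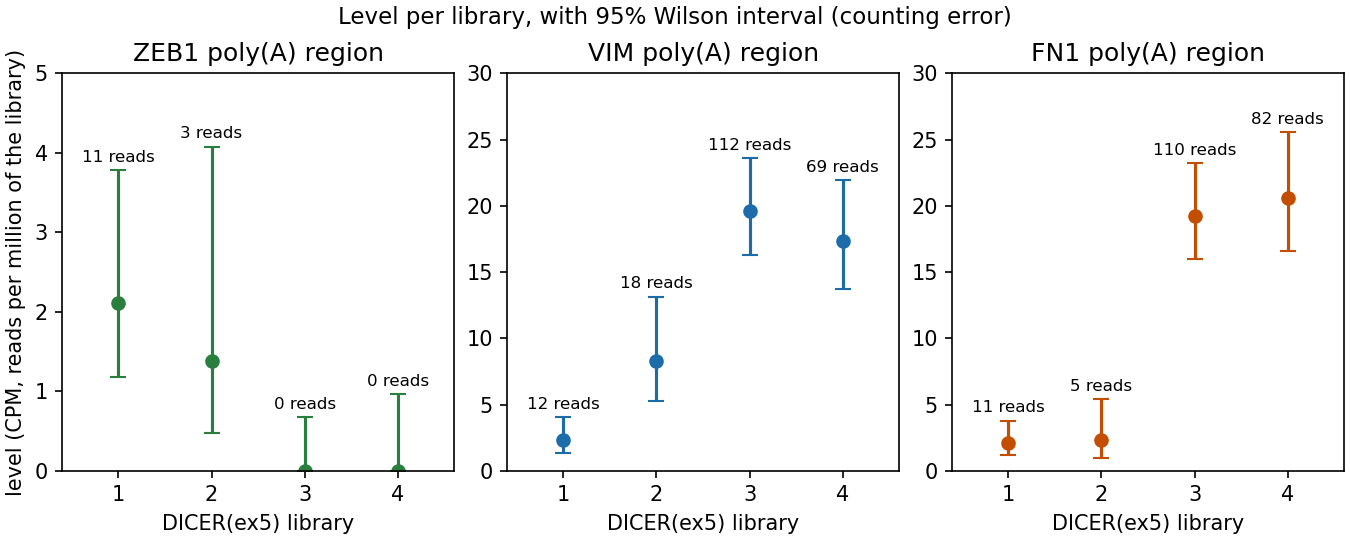
Level of the ZEB1, VIM and FN1 regions in each DICER(ex5) library, in CPM on a linear axis, drawn with a shorter range for ZEB1. Points are single libraries labelled with their reads, and bars are 95% Wilson intervals for counting error; VIM and FN1 lie at 17.3 to 20.6 CPM in libraries 3 and 4, and ZEB1 is at 0 there.

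The mesenchymal genes VIM and FN1 each had 1 region, close to the 3' limit of the window, with most of its reads in libraries 3 and 4. Both had 17.3 to 20.6 CPM in libraries 3 and 4, against 2.30 CPM (VIM) and 2.11 CPM (FN1) in library 1. In library 2, VIM lay between these levels with 8.32 CPM, while FN1 had 2.31 CPM, close to its level in library 1.

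The VIM region was 69 bases wide (chromosome 10, plus strand, 17279535 to 17279603) and lay 1.40 kb from the 3' limit of its window. VIM had 12, 18, 112 and 69 reads in libraries 1 to 4. These are 2.30 CPM (1.32 to 4.03), 8.32 CPM (5.26 to 13.2), 19.6 CPM (16.3 to 23.6) and 17.3 CPM (13.7 to 21.9). The intervals of libraries 3 and 4 overlap each other and neither overlaps those of libraries 1 and 2. The intervals of libraries 1 and 2 do not overlap each other either. The mean was 11.9 ± 8.03 CPM (SD, n = 4).

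The FN1 region was 47 bases wide (chromosome 2, minus strand, 216225564 to 216225610) and lay 1.56 kb from the 3' limit of its window. FN1 had 11, 5, 110 and 82 reads in libraries 1 to 4. These are 2.11 CPM (1.18 to 3.78), 2.31 CPM (0.987 to 5.41), 19.3 CPM (15.98 to 23.2) and 20.6 CPM (16.6 to 25.5). The 2 high and the 2 low libraries were far apart, with overlapping intervals inside each pair. The mean was 11.1 ± 10.2 CPM (SD, n = 4), again a level that no library showed.

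Each gene was read at a single place. The VIM, FN1 and ZEB1 regions took 100% of the reads of their windows, with no other region to share them, so usage of alternative poly(A) sites could not be measured for any of the 4 genes. The nearest region of the same strand was 399 kb from VIM, 582 kb from FN1 and 2090 kb from ZEB1. No region of the same strand within 5 kb was found for 37.6% of all regions, 24.3% of those of 41 bases or more and 95.0% of those of 5 bases or fewer. The windows held 0 regions on the opposite strand. Just outside the windows on the same strand, the nearest regions were 397 kb beyond VIM with 33, 9, 1 and 0 reads in libraries 1 to 4, and 505 kb from FN1 with 20, 5, 21 and 15. Neither shows the pattern of the gene beside it. The region beyond VIM is narrow (17678283 to 17678289), and the part of region width in its reads was not tested.

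The place of VIM and FN1 among all regions varied with the library. By reads summed over the libraries, 66.7% of the regions had fewer than VIM and 66.5% fewer than FN1. In library 1 only 11.2% of regions were below VIM and 8.10% below FN1. In library 3 the shares were 74.9% and 74.7%, and in library 4 they were 73.0% and 75.6%. In library 2, VIM stood above 55.6% of regions and FN1 above 14.9%. The median region had 6.52, 6.47, 5.08 and 5.27 CPM in libraries 1 to 4, so both genes lay below the median in library 1 and above it in libraries 3 and 4.

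**Figure D2:**
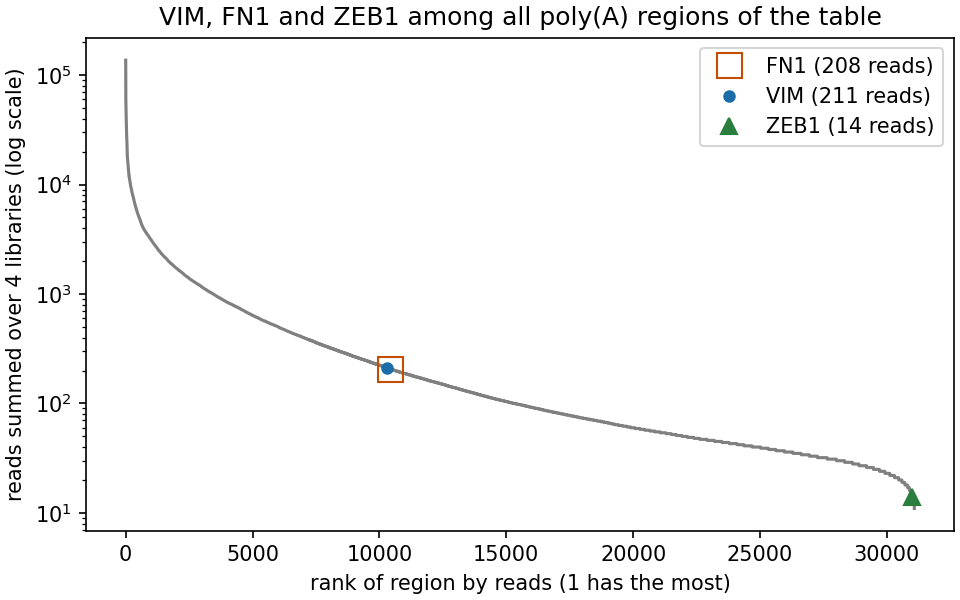
Reads summed over the 4 libraries (log axis) against rank for all 31081 poly(A) regions, with VIM, FN1 and ZEB1 marked. VIM (211 reads) and FN1 (208 reads) lie in the upper part of the table at almost the same rank, and ZEB1 (14 reads) lies at its lower end.

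Within libraries, VIM and FN1 could rarely be told apart. A poly(A) site read marks a transcript end whatever the length of the transcript, so levels were compared between the genes without a division by length. VIM took 52.2% (33.0% to 70.8%) of the reads of both genes in library 1, 50.5% (43.9% to 57.0%) in library 3 and 45.7% (38.0% to 53.7%) in library 4. In library 2 it took 78.3% (58.1% to 90.3%) of 23 reads, the only library whose interval leaves out 50%. The mean difference of VIM minus FN1 was 0.822 ± 3.84 CPM (SD, n = 4; exact sign permutation test, two-sided p = 0.625, where the smallest possible p is 0.125). The order of the mean levels of the listed regions was VIM, FN1, ZEB1, where the ZEB1 reads need not mark transcript ends. The mean difference between VIM and FN1 was smaller than its SD, and in library 4 VIM was the lower (17.3 against 20.6 CPM). With 4 libraries this test cannot reach a p under 0.05, so it cannot decide whether the genes differ. In library 1, ZEB1 had the same 11 reads as FN1.

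How VIM and FN1 differed between libraries was tested over all regions of the table. FN1 was higher in library 3 than in library 1 by 9.12-fold (19.3 against 2.11 CPM; Fisher's exact test with Benjamini-Hochberg adjustment, adjusted p = 1.45e-08). VIM was higher by 8.51-fold in the same pair (19.6 against 2.30 CPM; adjusted p = 3.9e-07). Of the 3 regions, 2 were therefore called higher in library 3, where 5.58% of all regions and 10.6% of those of 41 bases or more were. In library 4 against library 1, FN1 was 9.75-fold and VIM 7.52-fold higher (adjusted p = 1.8e-11 and 0.000215 by the same Fisher test), and 4.98% of all regions and 10.3% of the wide ones were called higher.

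Against library 2 the genes parted. FN1 was 8.33-fold higher in library 3 and 8.91-fold higher in library 4 (adjusted p = 1.45e-06 and 2.08e-09 by Fisher's exact test). VIM was 2.36-fold higher in library 3 (adjusted p = 0.0113) and 2.08-fold higher in library 4 (17.3 against 8.32 CPM), which did not pass in the thinned counts (adjusted p = 0.188). In that last pair VIM did pass under another random thinning (adjusted p = 0.012) and on the counts as deposited (0.0195). Under the other thinning, the same Fisher test gave VIM an adjusted p of 0.0438 for library 3 against library 2. For library 3 against library 2, where 2 of the 3 were called, 8.08% of all regions and 14.2% of the wide ones were called higher. For library 4 against library 2, where 1 was, the shares were 7.73% and 14.3%.

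Inside the 2 pairs of like libraries, the test called 0 of the 3 regions. For library 2 against library 1, 0.927% of all regions were called in either direction. VIM was 3.61-fold higher in library 2 (8.32 against 2.30 CPM), with an unadjusted p of 0.0106 and an adjusted p of 0.303 by Fisher's exact test, and it was the 1 region of the 3 with an unadjusted p under 0.05. On the counts as deposited its adjusted p was 0.0336. For library 4 against library 3, 0.203% of all regions were called, and 0 of the 3 had an unadjusted p under 0.05. FN1 was 20.6 against 19.3 CPM there and VIM 17.3 against 19.6 CPM.

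The size of the differences was set against the whole table. In log2(CPM + 1), library 3 minus library 1 was 2.70 for FN1 and 2.64 for VIM, against a median of -0.11 over all regions and -0.02 over those of 41 bases or more. Differences at least as high as these were found in 0.377% of the regions of 41 bases or more for FN1 and 0.419% for VIM. For library 4 minus library 2 the difference was 2.71 for FN1, reached by 0.614% of these wide regions, and 0.98 for VIM, reached by 6.89%. FN1 was called higher in all 4 comparisons of library 3 or 4 with library 1 or 2, as were 1004 regions of the table (3.23%) and 530 of the wide ones (7.4%). VIM was called in 3 of these 4 in the main thinned counts, and its call for library 4 against library 2 varied with the setting. The whole table divides the libraries in the same way, and the part of that division in the VIM and FN1 values was not tested.

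**Figure D3:**
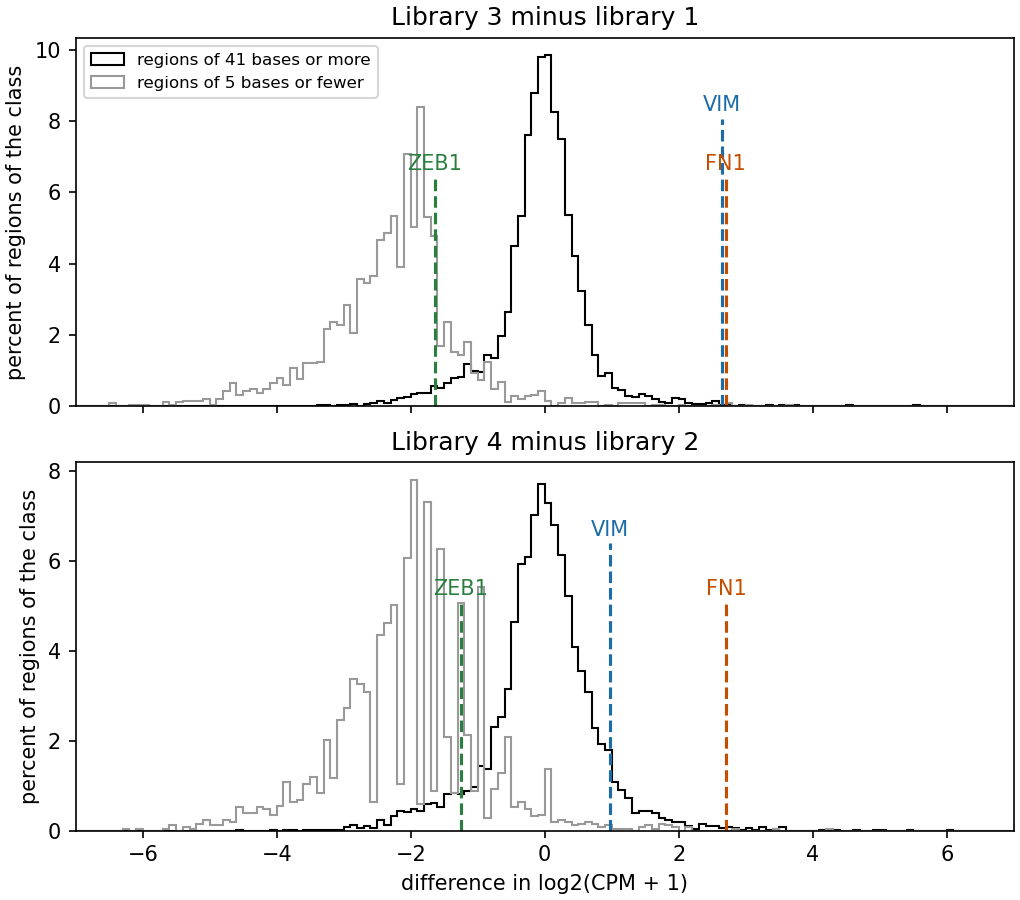
Distribution of the difference in log2(CPM + 1) over regions of 41 bases or more (black) and of 5 bases or fewer (grey), in percent of each class, for library 3 minus library 1 (top) and library 4 minus library 2 (bottom). Dashed lines mark VIM, FN1 and ZEB1: FN1 lies at about 2.7 in both panels, VIM at 2.64 and 0.98, and ZEB1 at -1.64 and -1.25, within the narrow regions.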

How the data were processed

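Poly(A) site sequencing was carried out on 4 libraries of DICER(ex5) cells. Fragments of 50 to 100 nt were selected from poly(A)+ RNA, per the labels' protocols, and cDNA was primed with anchored oligo(dT). The table deposited by the authors gives raw read counts for each poly(A) region in every library. Per the submitters' processing notes, Bowtie2 2.2.5 and the build hg19 were used. How regions were formed and filtered, and whether PCR duplicates were removed, was not given in the sources used here. All columns matched a library by title. Positions are printed as deposited, and widths are end minus start plus 1.

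The genes, width classes and tests were chosen with earlier results of these data known. The windows name the genes, since the table names no genes, and no hg19 annotation or genome was used here. The planned list of other epithelial and mesenchymal genes, and the search for genes of like level, were therefore not analysed here. The genes described are the 4 of the windows, with every region of at least 10 reads and 5% of the reads of its gene.

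CPM used library totals of 5211279, 2163977, 5713530 and 3984278 reads. With 1 group, no contrast between conditions exists. Each of the 6 pairs of libraries was compared by Fisher's exact test (two-sided, SciPy 1.17.1) on counts thinned to the smallest total, with Benjamini-Hochberg adjustment over all 31081 regions and a threshold of 0.05. The test treats reads as independent molecules, so spread beyond sampling can add calls. Intervals are 95% Wilson intervals. Alternative scalings used edgeR 4.0.16 (TMM) and DESeq2 1.42.0 (size factors).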

Additional observations from a re-analysis of the deposited data

How the results depend on the processing

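Without each library in turn, VIM averaged 9.31 to 15.1 CPM, FN1 7.89 to 14.1 and ZEB1 0.462 to 1.17, against 11.9, 11.1 and 0.874 with all 4. The lowest ZEB1 value was without library 1, which held 11 of its 14 reads. TMM scaling gave 12.2, 11.4 and 0.841 CPM, and DESeq2 size factors 12.1, 11.3 and 0.849. With regions of 10 bases or fewer left out, ZEB1 had no region and so no value. Of the 3 regions, 1 (VIM) differed between libraries 2 and 1 on the counts as deposited, which called 1.75% of all regions, against 0 in the thinned counts, which called 0.927%. Between libraries 4 and 2, 2 differed (VIM and FN1) on the counts as deposited, under another thinning and with DESeq2 size factors, against 1. These settings called 29.2%, 22.1% and 21.6% of all regions in that pair, against 22.0%. With library 3 or 4 against library 1, the counts as deposited called 3 regions, ZEB1 included, against 2, and 35.7% and 31.3% of all regions, against 18.6% and 19.0%. ZEB1 reached the lowest listed peak count only in library 1, so its call cannot show a lower level in libraries 3 and 4. With 14 reads, ZEB1 was not tested where regions needed 100. Other minimum shares, merged ends and other joining distances for usage within a gene were not run, since no gene had more than 1 region. No paired analysis was possible because there is 1 group.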

Other observations

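The poly(A) region nearest to FN1 on the opposite strand lay outside the window, 11.1 kb from the FN1 region (chromosome 2, plus strand, 216214476 to 216214496, 21 bases wide). It had 359, 178, 79 and 60 reads in libraries 1 to 4, or 68.9, 82.3, 13.8 and 15.1 CPM. It was high in libraries 1 and 2 and low in libraries 3 and 4, the reverse of FN1. In single pairs, 13% to 15.4% of all regions were called lower in library 3 or 4 than in library 1 or 2. The share called lower in every such pair was not counted, and a link between this region and FN1 was not tested. The nearest opposite-strand region of VIM, 88.7 kb away, had 1.92, 0.462, 2.63 and 2.01 CPM in libraries 1 to 4. That of ZEB1, 287 kb away, had 9.79, 8.78, 12.4 and 10.0 CPM, and neither divided the libraries in this way. The files pair the region near FN1 with no gene.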
